A study of Mus musculus with 43 samples.

Results

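At 325 CCCGGG sites, methylation of non-dysplastic colonic epithelium differed widely between the libraries of mice that ate the same diet. They were chosen among sites on chromosomes 1 to 19 with at least 50 reads in at least 5 of the 7 first-cohort libraries of mice on 2 mg FA per kg chow. Of the 173449 sites listed for build mm9, 17383 passed that read criterion, and the 325 are those whose adjusted methylation had an SD of 12 percentage points or more over these libraries (1.87%). In this group each mouse gave 1 library, so differences between mice cannot be told from differences between libraries. The values of the 7 libraries chose the sites, so their spread in that group is given as a description and is not tested. They are called the variable sites. On the raw percentages the same rule found 1092 sites, 208 of them among the 325.

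All mice were Swiss Webster, an outbred stock, so that animals differ in genotype. They received the carcinogen AOM at 7 weeks of age, had colitis induced with 4 cycles of 2% DSS and were killed at 27 weeks. All ate 2 mg FA through AOM and the first DSS cycle, and were then put on 0, 2 or 8 mg for 16 weeks. Epithelium without dysplasia (ND) or polypoid dysplasia (P) was cut from fixed, embedded colon by laser microdissection. The paper profiled 2 kinds of non-dysplastic sample, epithelial cells alone and epithelium together with lamina propria. The labels say only non-neoplastic cells, so the kind in each cohort is not known here, and both are called epithelium. Comparisons across cohorts, and of polyps with epithelium, may thus set unlike samples side by side, which was not tested. In the first cohort, epithelium came from 5 mice on 0 mg FA (0ND), 7 on 2 mg (2ND) and 6 on 8 mg (8ND). The second cohort held epithelium and polyps of 6 mice on 0 mg (0ND and 0P) and of 6 mice on 8 mg (8ND and 8P), with 2 lesions of mouse 1856 averaged to 1 value. No mouse was free of AOM and DSS, and no polyp of a mouse on 2 mg was analysed here. Mice 1807, 1809, 1820, 1830, 1841, 1848, 1856 and 1858 gave epithelium libraries to both cohorts, which are therefore not independent. Animals with a first-cohort library only carry the LC of their labels.

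Methylation of a CpG varies between cells as well as between animals, and the percentage at a site in a tissue sample is the share of DNA copies that carry the mark. Sites near 0% or 100% leave little room for animals to differ, while sites at middle levels leave the most. Folate feeds the one-carbon cycle that makes S-adenosylmethionine, the methyl donor of DNA methyltransferases. DREAM reads methylation at CCCGGG, which is cut by SmaI where unmethylated and by XmaI thereafter, so that the end of a read shows the state of that copy. The percentages were adjusted by the authors with spiked standards, which multiplied the odds of methylation in a 2ND library by 1.24 to 3.81 and in a library of the other groups by 0.992 to 4.04. No site was assigned to a gene, since the genome at hand is of a later build. Each is named by its chromosome and mm9 position.

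The libraries held 1488920 to 16923453 reads on sites, 3636528 to 11687772 in 2ND. In the second cohort, the 8ND library of mouse 1856 covered 305 of the variable sites with at least 20 reads, and the other 8ND libraries of that cohort 174 to 250. The spread in that group and the test between mice were therefore also computed without mouse 1856. So were the calls for diet in that cohort and for polyps against epithelium on 8 mg. The test of polyp change by diet, the correlations and the counts without overlap were not. PCR reads carried no molecular identifiers, so counting errors below cover counting only.

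The variable sites lay at middle methylation levels. Their mean in 2ND had a median of 46.1% (6.81% to 82.9%), against 0.323% over the 17383 sites with enough reads. Between 20% and 80% lay 307 of the 325, which is 11.4% of the 2689 sites at those levels. A further 15 lay between 5% and 20% and 3 between 80% and 95%. None lay under 5%, where 11792 sites with enough reads are found, or over 95%. The other 2382 sites between 20% and 80% in 2ND, which were not variable, serve below as a comparison and are called the other middle-level sites.

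**Figure D1:**
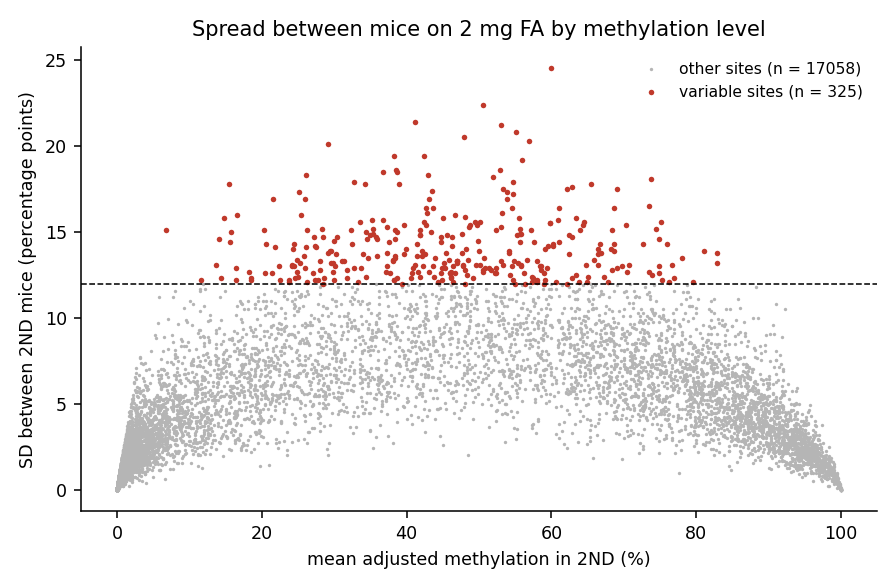
Each point is 1 of the 17383 sites with enough reads in 2ND. The horizontal axis is the mean adjusted methylation in 2ND (%) and the vertical axis the SD between the 2ND mice (percentage points). The 325 variable sites, at or above the dashed line at 12 points, lie mostly between 20% and 80%, where the cloud of other sites is also highest.

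The SD of the variable sites ran from 12 to 24.5 points (median 13.7), against a median of 0.578 over all sites with enough reads and 7.32 over the other middle-level sites. At the threshold, chr6:50328253 (SD 12.0004) and chr17:36368450 (12.0133) lay just inside, and chr2:31756715 (11.9963) and chr17:22764684 (11.9893) just outside. The lowest and the highest 2ND mouse of a site were 25.2 to 70.0 points apart (median 37.5). No variable site was under 20% in one mouse and over 80% in another, and 63.2% of the 2047 values lay between 30% and 70%. Most values thus lay at middle levels, with few mice near 0% or 100%.

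Counting error was a small share of this spread. The variable sites had a median of 147 reads per library, and the other middle-level sites 249. Counting alone would give a median SD of 4.31 points, 9.04% of the variance at the median site. With the counting variance subtracted, the SD had a median of 13.0 and was never under 10.5. Only 4 variable sites had 0 reads in any 2ND library.

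Most of the sites lay close enough to the threshold to fall under it without 1 library. Only 59 of the 325 kept an SD of 12 or more whichever 2ND library was left out, and 266 fell under 12 without 1 of them. The sites were chosen on these values with a median SD of 13.7, and leaving out the farthest value lowers any SD. Such falls are thus largely built in, and no like share is given for other sites. The mouse farthest from the site's mean was LC1822 at 87 sites, LC1835 at 73, LC1812 at 65 and each of the other 4 mice at 22 to 30. Mice LC1822 and LC1812 also had the largest adjustment factors in 2ND (3.47 and 3.81), and LC1835 a factor of 2.27. The part of the adjustment in this order was not tested. The farthest mouse was above the mean at 148 sites and below it at 177.

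The most variable sites show what such differences looked like. At chr7:114353700, which had the largest SD (24.5 points over 6 mice with 54 to 100 reads), mice LC1822 and LC1812 stood at 90.8% and 81.3% and mouse LC1829 at 72.0%. Mice LC1832, LC1835 and LC1824 stood at 44.8%, 39.0% and 32.1%. The site is 1 of a run of 4 variable sites with chr7:114353568, chr7:114353664 and chr7:114353787, and mouse LC1824 was the lowest 2ND mouse at all 4.

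A run of 3 on chromosome 2 gave the same kind of picture. At chr2:56965057 (SD 17.2), 2ND mice LC1812, LC1814 and LC1822 stood at 78.6%, 70.5% and 68.7%, and the other 4 at 37.6% to 45.4%, with 101 to 408 reads. Those 3 mice are apart from the other 4 by a gap larger than the range within either set. In 0ND of the first cohort, mouse LC1810 had 13.2% there (504 reads) and the other 4 mice 49.7% to 57.2%. The neighbours chr2:56964926 and chr2:56964153 ran from 18.0% to 59.7% and from 25.3% to 58.0% over the 2ND mice.

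The third run, chr4:128036221 and chr4:128036597, was set by 1 of the 5 mice with enough reads. At the first of them mouse LC1822 had 21.4% (69 reads) and the other 4 mice 59.8% to 71.2%. At the second it had 17.6% and the others 53.0% to 74.0%. Mouse LC1812, with 20 and 27 reads and so outside the rule, had 0% at both, which allows raw shares of up to 15.0% and 11.1%. Neither site had 20 reads in any epithelium library of the second cohort.

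With 1 site taken from each run, the largest SDs among sites that could also be evaluated in both other first-cohort groups were at chr4:139078272 (22.4), chr5:104008729 (18.6), chr7:140235974 (18.1), chr2:56965057 (17.2) and chr13:98652693 (16.4). The neighbour of the first, chr4:139078086, had 17.8. At chr5:104008729 the 2ND mice ranged from 27.6% to 71.4% (median 64.6%). The 0ND mice were as spread (28.2% to 72.5%), while 8ND of the first cohort had 42.4% to 70.1%, with means of 52.9%, 54.7% and 59.0%. Its group means lay closer together than the mice within any of the 3 groups.

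The variable sites lay close together along the genome more often than the sites they were drawn from. Of the 325, 89 (27.4%) had another variable site within 1000 bases, against 1.98% of all sites with enough reads that had a variable site so near, and 6.30% of the other middle-level sites. They formed 41 runs of 2, 1 of 3 and 1 of 4, and 236 sites stood alone. Adjacent members of a run were 6 to 773 bases apart (median 188.5), and 45 of the 46 gaps were at most 400 bases. The libraries were cut from 250 to 500 bp fragments, so the sites of such a pair can be the 2 ends of 1 fragment and share molecules. Neighbours are therefore not independent observations.

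Deviations of a mouse from its group mean were shared by such neighbours. Over the points of adjacent variable sites the correlation was 0.744 in 2ND, 0.612 in 0ND and 0.685 in 8ND of the first cohort. In the second cohort it was 0.741 in 0ND, 0.684 in 8ND, 0.487 in 0P and 0.483 in 8P (91 to 289 points each). The 2ND values chose the sites, so the 0.744 comes from the same values as the rule. Adjacent other middle-level sites gave 0.278 to 0.641. In 0ND of the first cohort they had 0.641, above the 0.612 of the variable sites, and in every other group they were below the variable sites. These points share libraries and fragments, so the correlations are a description. Every autosome carried variable sites, from 0.537% of the sites with enough reads on chromosome 3 to 3.24% on chromosome 12.

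Whether a site that varied in 2ND also varied in other mice was asked in the 6 groups that did not choose it. A site was evaluated in a group when at least 5 mice had 50 reads. In 0ND of the first cohort, 22 of 69 variable sites had an SD of 12 or more (31.9%), against 1.55% of all sites and 13.4% of the other middle-level sites. In 8ND of that cohort, 40 of 183 did (21.9%, against 2.08% and 12.5%). The other middle-level sites lay between the variable sites and all sites in both groups. In raw percentages the shares of the variable sites were 55.1% and 10.4%.

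The second cohort had shares of 43.4% in 0ND (62 of 143), 75.0% in 8ND (60 of 80), 72.9% in 0P (129 of 177) and 28.8% in 8P (68 of 236). Over all sites the background was 4.71%, 8.36%, 15.3% and 4.61%. The other middle-level sites reached 31.8%, 61.8%, 72.2% and 24.4%. In 0P and 8P the variable sites were thus 0.700 and 4.40 points above sites of like level, and in 0ND and 8ND 11.6 and 13.2 points. The share in 8ND was 47.8% (of 23 sites) at a minimum of 100 reads, and 69.1% without mouse 1856.

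The median SD of the variable sites told the same. It was 10.6 in 0ND and 8.98 in 8ND of the first cohort, and 11.1, 15.4, 16.2 and 10.2 in 0ND, 8ND, 0P and 8P of the second. The other middle-level sites had 7.38, 7.73, 9.87, 13.4, 15.6 and 9.16 in the same order. Among sites between 20% and 80%, the SD in 2ND correlated with the SD in another group with r from 0.0871 (0P) to 0.247 (0ND, first cohort), over sites and not over animals.

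**Figure D2:**
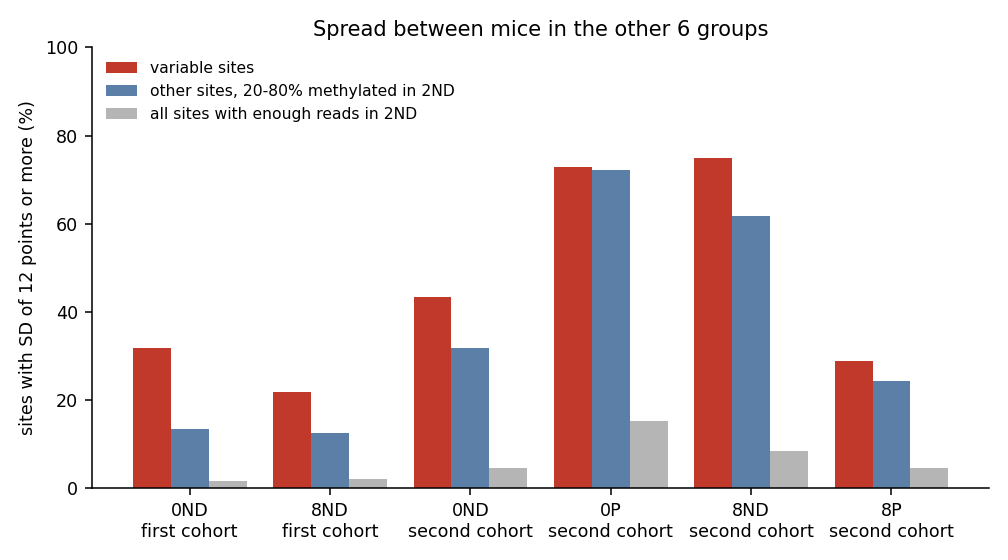
Bars show, for each group not used by the rule, the percentage of sites whose SD between mice was 12 points or more. Red bars are the variable sites, blue bars the other sites at 20% to 80% in 2ND and grey bars all sites with enough reads in 2ND. Red is above blue by the widest margin in 0ND of the first cohort (31.9% against 13.4%) and level with it in 0P (72.9% against 72.2%).

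Few sites varied everywhere. Of the 325, 81 had too few reads to be evaluated in any other group and 27 could be evaluated in all 6. Of those 27, 1 had an SD of 12 or more in none of the 6 groups, 5 in 1, 9 in 2, 9 in 3 and 3 in 4, and none in 5 or 6. The median was 2 groups, and it was also 2 over the 488 other middle-level sites evaluated in all 6. Of the 69 sites evaluated in both other groups of the first cohort, 4 varied in both and 40 in neither.

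The most deeply read of the named sites was chr17:36368450, with 1247 to 7959 reads in 2ND and a counting SD of 0.936 points. In the first cohort the 2ND mice lay between 45.1% and 76.3%, the 0ND mice between 40.1% and 69.8% and the 8ND mice between 29.4% and 83.0%. The second cohort spanned 37.3% to 67.2% for 0ND, 31.0% to 64.7% for 0P, 41.4% to 85.4% for 8ND and 56.7% to 78.6% for 8P. Counting error is small beside these ranges in all 7 groups, and all 7 group means lay between 52.2% and 64.4%.

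Whether 2 libraries of 1 mouse deviate from their group means in the same way was tested with limma over the 16 epithelium libraries of the 8 mice present in both cohorts, none of which had entered the rule. Of the 118 variable sites with 20 reads in all 16 libraries, 0 passed an adjusted p of 0.05, where 0.172% of all sites did (16 of 9297). At an unadjusted p of 0.05 the count was 8 (6.78%), against 2.69% of all sites and 3.61% of the other middle-level sites. The smallest adjusted p in limma was 0.328, and without mouse 1856 the unadjusted count was 14 of 119. Sites that lacked reads in any of the 16 libraries, 207 of the 325, were not tested.

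Over the variable sites, deviations of 2 libraries of 1 mouse correlated weakly. For 0ND epithelium of both cohorts the 3 mice gave r of -0.0697, 0.267 and 0.429 (mice 1807, 1809 and 1820, 52 to 120 sites), with a mean of 0.209. Pairs of different mice on that diet had a mean of -0.0282 and ranged from -0.307 to 0.402. For 8ND the 5 mice ranged from -0.0824 to 0.176 (mean 0.0405) and different mice from -0.227 to 0.382. Only mouse 1820 lay above every pair of different mice.

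Polyp and epithelium of 1 mouse agreed no better. The mean r was 0.0560 over the 6 mice on 0 mg (-0.0266 to 0.123) and 0.0291 over the 7 pairs of lesions and epithelium on 8 mg (-0.0697 to 0.241). Different mice had means of -0.0106 and -0.00561, and their ranges covered all the values of 1 mouse. The 2 lesions of mouse 1856 gave r = -0.260 over 241 sites, and lesions of different mice -0.388 to 0.141 (mean -0.178). Both lesions of such a pair are set against the mean of 1 group that holds them, which pulls r below 0. These values are therefore not comparable with those between tissues. The lesions of that mouse differed by a median of 10.8 points per site, and those of different mice by 7.50 to 13.2.

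**Figure D3:**
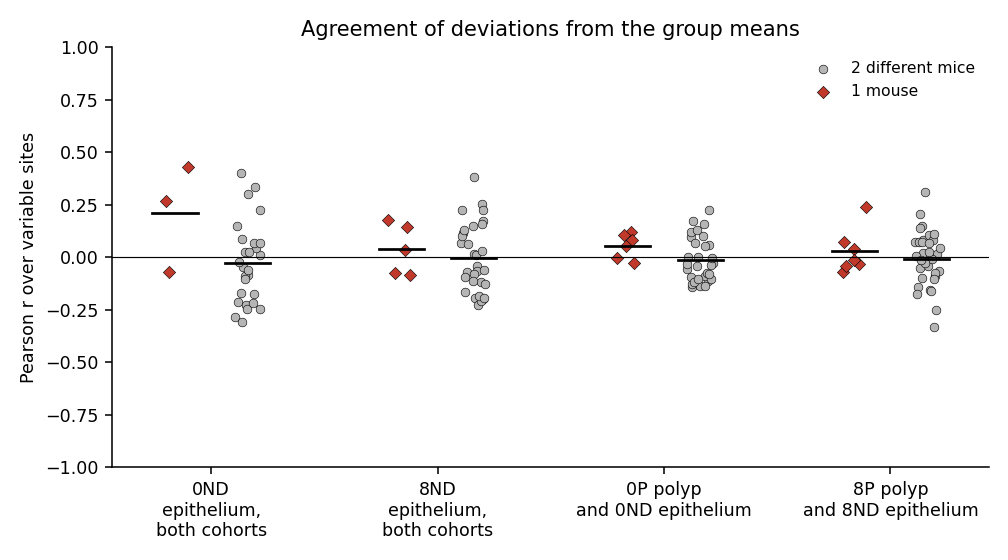
Each point is a pair of libraries and its Pearson r, over the variable sites, between the libraries' deviations from their group means. Red diamonds are pairs from 1 mouse, grey circles pairs from different mice on 1 diet, and bars the means. The pairs from 1 mouse fall within the range of different mice except for mouse 1820 in 0ND epithelium (0.429).

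Some single sites did repeat in an animal. At chr7:140235974 mouse 1820 had 36.0% in its first-cohort epithelium (88 reads) and 25.1% in its second (80 reads). The other 0ND mice had 83.7% to 98.0% and 83.1% to 100.0%. This mouse stood alone at the bottom of its group in both cohorts. Its polyp had 95.1% at the site (154 reads), within the 79.2% to 100.0% of 0P. This site lacked reads in mouse 1830 and so was not in the test between mice.

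The variable site with the smallest p between mice was chr12:107123316 (limma F = 15.7, unadjusted p = 0.00155, adjusted 0.328). Mouse 1807 had 43.7% and 24.3% in the 2 cohorts, mouse 1809 76.4% and 63.7%, and mouse 1820 82.6% and 78.9%. In both cohorts the 3 animals kept this order, with mouse 1807 far under the others. On 8 mg mouse 1858 was the lowest in both, at 51.5% and 37.5%. The polyps of the same mice had 29.9%, 54.8% and 90.5%. Reads at this site ran from 121 to 3350 in 0ND of the second cohort and from 24 to 421 in the first, and the part of this difference in the result was not tested.

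At chr11:43431719 (adjusted p = 0.877 in limma) mouse 1807 was again low, with 3.42% and 4.10%, and on 8 mg mouse 1848 was high, with 31.2% and 24.9%. At chr7:132106280 (adjusted p = 0.866 in limma) mouse 1807 had 34.1% and 35.4%, the lowest 0ND value in both cohorts. On 8 mg there, mouse 1848 had the highest value in both cohorts, 50.5% and 45.0%. The other named sites were chr17:22764482 and chr12:45429030 (both with adjusted p = 0.877 in limma). Values of single mice recur at these sites, which were picked for small p-values, and none passed the adjusted threshold.

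Diet was asked next, between 8ND and 0ND, because 2ND had chosen the sites. A site was called when its means differed by more than 5 points at an unadjusted p of 0.05. In the first cohort, 59 of 281 variable sites were called (21.0%), 56 of them lower on 8 mg. Over all sites 4.90% were called, 4.23% lower and 0.674% higher, and 22.8% of the other middle-level sites. The median difference was -6.18 points over the variable sites and -5.19 over the other middle-level ones. In this cohort the share called among the variable sites was within 2 points of that among the other middle-level sites.

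In the second cohort 25 of 216 were called (11.6%), 24 of them lower on 8 mg. The background was 1.63% (1.43% lower and 0.207% higher), and 7.37% of the other middle-level sites were called. Of the 59 sites called in the first cohort 39 were tested in the second, where 33 had the same sign (84.6%) and 11 were called (28.2%). Of 405 such other middle-level sites, 82.0% had the same sign and 13.6% were called. The cohorts share mice, so the second is not an independent test. By limma with Benjamini-Hochberg adjustment 0 variable sites passed in either cohort, as did 0% of all sites in each. An unadjusted p under 0.05 in limma was found at 62 (22.1%) and 25 (11.6%) of them, against 6.42% and 1.98% of all sites and 24.2% and 7.78% of the other middle-level sites. Groups did not overlap at 27 of the 59 called sites in the first cohort, 9.61% of those tested, against 1.18% of all sites and 4.81% of the other middle-level sites. In the second cohort they did not overlap at 1 of the 25 (0.463% of those tested, against 0.214% and 1.06%).

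The 56 sites lower on 8 mg show where 2ND lay. These sites were chosen as high in 0ND and low in 8ND of the first cohort. The choice itself favours a 2ND mean between the 2, and sets those groups apart in that cohort. At 48 of the sites the 2ND mean was between those of 0ND and 8ND, at 3 it was above 0ND and at 5 below 8ND. No such share is given for other sites. Averaged over the 56 sites, the 0ND mice of the first cohort had 62.7% to 69.7%, the 2ND mice 41.8% to 58.1% and the 8ND mice 36.3% to 48.2%. Of the 2ND mice, LC1824, LC1835 and LC1829 had 56.1% to 58.1%. Mice LC1814, LC1812, LC1822 and LC1832 had 41.8% to 48.9%, inside or close to the range of 8ND. The spread of these same 2ND libraries chose the variable sites, so distances between 2ND mice are part of the rule. The 0ND mice of the second cohort had 53.4% to 69.4% and the 8ND mice 36.2% to 57.6%. Mouse 1858, the lowest of 8ND in the first cohort (36.3%), was the highest of 8ND in the second (57.6%). Each mean covers only the sites with enough reads in that mouse. For mouse 1858 these were 55 of the 56 in the first cohort and 39 in the second, so its means are of unlike sets of sites.

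Of the 281 sites tested in the first cohort, chr9:46426228 and chr17:80548491 differed most. At chr9:46426228 the 5 0ND mice had 71.0%, 82.8%, 86.2%, 87.9% and 95.8% and the 5 8ND mice with enough reads 22.2%, 29.9%, 46.5%, 56.4% and 69.0%. The groups did not overlap, and differed by -40.0 points (SE 9.24, limma adjusted p = 0.332). In the second cohort the difference was -12.4 points (SE 18.3) and was not called.

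At chr17:80548491 the 0ND mice had 45.8%, 56.1%, 58.6%, 66.3% and 70.1%. The 8ND mice lay between 16.8% and 26.8% (median 22.1%), and the 2ND mice between 10.8% and 51.3% (median 34.4%). The diet groups 0ND and 8ND stood far apart, and 2ND covered the range from below 8ND to inside 0ND. The difference was -37.4 points (SE 4.18, limma adjusted p = 0.0531), and -21.7 (SE 6.83) in the second cohort.

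The 1 called variable site without overlap in the second cohort was chr6:50328253. Its 0ND mice had 30.8% to 79.0% (median 64.4%) and its 8ND mice 0% to 29.4% (median 22.3%), which left a gap of 1.46 points between the groups. The 0% was that of mouse 1830 with 30 reads, which allows a raw share of up to 10.0%. The groups differed by -41.3 points (SE 8.76, limma adjusted p = 0.884), and in the first cohort by -33.6 (SE 6.48). A site called in both cohorts whose SD was among the largest was chr13:98652693, at -20.6 and -30.0 points.

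Polyps were lower than epithelium at many of these sites. Between 0P and 0ND, 51 of 234 variable sites were called (21.8%), 47 of them lower in polyps. The background was 5.52% (4.94% lower and 0.578% higher), and 24.5% of the other middle-level sites were called. On 8 mg, 30 of 222 were called between 8P and 8ND (13.5%), 20 lower and 10 higher, against 5.31% (3.90% lower and 1.41% higher) and 18.0%. In both diets the share was under that of the other middle-level sites. Without mouse 1856 the count on 8 mg was 27 of 185, 15 of them lower, and without mouse 1841 it was 18 of 188.

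**Figure D4:**
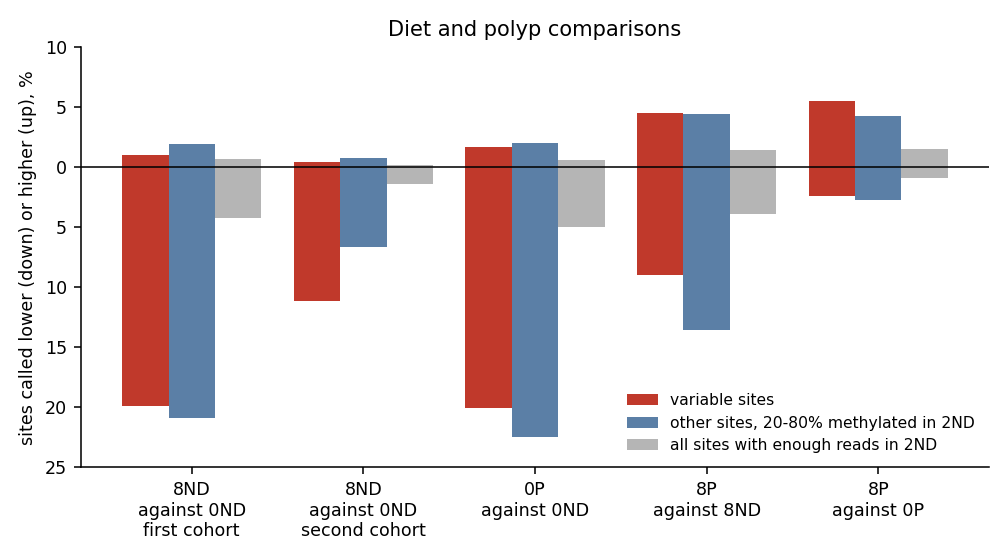
Bars show the percentage of tested sites called lower (downwards) or higher (upwards) in the first-named group of each comparison. Red bars are the variable sites, blue bars the other sites at 20% to 80% in 2ND and grey bars all sites with enough reads in 2ND. With both directions summed, red stands above blue for diet in the second cohort (11.6% against 7.37%) and 8P against 0P (7.96% against 6.96%), and below it for diet in the first (21.0% against 22.8%), 0P against 0ND (21.8% against 24.5%) and 8P against 8ND (13.5% against 18.0%).

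Groups did not overlap at 18 of the 51 called sites on 0 mg, 7.69% of those tested, against 1.26% of all sites and 5.90% of the other middle-level sites. On 8 mg they did not overlap at 4 of the 30 (1.80% of those tested, against 1.08% and 3.13%). As a share of the called sites, this was 13.3% on 8 mg, under the 20.3% of all called sites. By limma with adjustment over all sites, 5 variable sites passed for 0P against 0ND, where 0.212% of all sites did, and all 5 were lower in polyps. An unadjusted p under 0.05 was found at 51 (21.8%, against 6.16% of all sites and 25.4% of the other middle-level sites). None passed for 8P against 8ND (0.0633% of all sites) although 30 had an unadjusted p under 0.05 (13.5%, against 8.29% of all sites and 18.7% of the other middle-level sites). The mice of 0P and 0ND are the same animals. With the mouse as a block, which needs values in both tissues of all 6 mice, none of the 5 passed (limma adjusted p of 0.133 to 0.270), and 0 of 11109 sites did.

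The 5 sites, named after their p-values were seen, were chr11:98973487, chr11:98973678, chr4:139078086, chr1:39997890 and chr9:109955078. At chr11:98973487 the 6 epithelium samples on 0 mg had 69.2% to 84.1% (median 75.1%) and the polyps of the same mice 7.85% to 44.1% (median 18.3%), with 213 to 1344 reads. The lowest epithelium stood 25.0 points above the highest polyp, and the means differed by -54.4 points (SE 6.19, limma adjusted p = 0.00898). Its neighbour chr11:98973678 had 77.5% to 89.8% in epithelium and 9.27% to 64.2% in polyps.

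On 8 mg the epithelium was lower at chr11:98973487, and the tissues overlapped. The 8ND mice of the second cohort had 26.3% to 78.8% (median 45.0%) and the 8P mice 18.9% to 55.1% (median 23.4%). That difference was -20.4 points (SE 9.72, limma adjusted p = 0.653). Diet itself gave -25.6 points in the first cohort and -27.4 in the second. The 2ND mice lay from 33.2% to 65.1%, overlapping both 8ND (31.7% to 56.7%) and 0ND (61.4% to 79.0%) of their cohort.

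Polyps on 0 mg were also lower at chr4:139078086. At chr4:139078086 the epithelium on 0 mg had 45.2% to 69.9% (median 64.7%) and the polyps 0% to 29.2% (median 9.70%), a difference of -49.6 points (SE 5.78, limma adjusted p = 0.00982). On 8 mg epithelium had 23.0% to 100.0% (median 32.1%), the 100.0% being that of mouse 1830 with all of 28 reads methylated, and polyps 11.7% to 31.5%. Tissue groups were apart on 0 mg and overlapped on 8 mg. At its neighbour chr4:139078272 they overlapped on 0 mg too, with 35.7% to 100.0% in epithelium and 0% to 44.2% in polyps.

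The other 2 sites fell by 44.5 points at chr1:39997890 (SE 6.71, limma adjusted p = 0.0362) and by 48.8 at chr9:109955078 (SE 7.76, limma adjusted p = 0.0436). At chr9:109955078 epithelium on 0 mg had 60.5% to 83.0% and polyps 0.980% to 52.0%, and on 8 mg epithelium had 53.3% to 72.3% and polyps 28.9% to 53.5%. It was called in both diets. In each of the 5 sites the lowest 0P value was that of mouse 1805 and the highest that of mouse 1808.

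**Figure D5:**
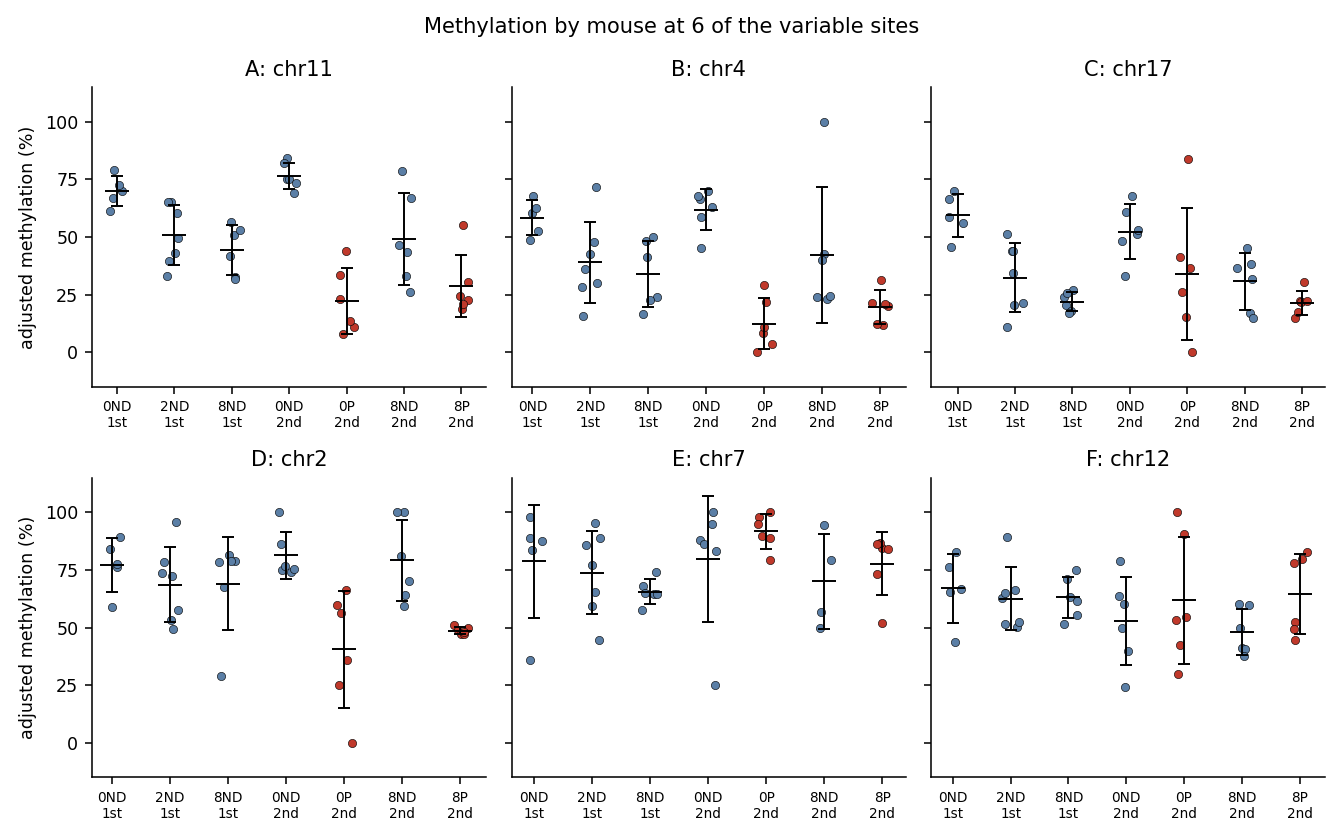
Adjusted methylation (%) of each mouse in the 7 groups at 6 variable sites, epithelium in blue and polyps in red, with bars for the mean and SD. A is chr11:98973487, B chr4:139078086, C chr17:80548491, D chr2:102580112, E chr7:140235974 and F chr12:107123316. A to D show groups that stand apart (in A, 69.2% to 84.1% in 0ND and 7.85% to 44.1% in 0P), and E and F spread within groups, with the low mouse of both 0ND groups in E being mouse 1820.

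The largest change between 0P and 0ND among called sites without overlap went up. At chr11:96182075 the 0ND mice had 4.42%, 8.91%, 9.56%, 28.4% and 36.3%, and the 4 polyps with at least 20 reads 54.1%, 77.7%, 84.3% and 97.3%. The groups did not overlap, and differed by 60.8 points (SE 10.5, limma adjusted p = 0.101). Among the polyps on 8 mg, 5 mice had 19.4% to 40.0% and mouse 1830 had 91.7%, with 21 reads. Coverage was low in several of these libraries, from 20 reads.

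On 8 mg the largest changes without overlap were at chr7:135569212 and chr2:102580112. At chr2:102580112 the epithelium had 59.4% to 100.0% (median 75.8%) and the polyps 47.0% to 51.1% (median 48.5%), a difference of -30.5 points (SE 7.13, limma adjusted p = 0.189). In 8P the values of the 6 mice lay within 4.10 points of each other, an SD of 1.61. The lesions of mouse 1856 were averaged there, which can narrow the spread. The SD at this site was 16.4 in 2ND, 20.2 in 8ND of the first cohort and 25.3 in 0P, where no lesions were averaged. At chr7:135569212 the difference was -33.2 points (SE 7.41, limma adjusted p = 0.170), and polyps had 14.5% to 37.7%.

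Means were taken over those of the 47 sites lower in 0P that had enough reads in a mouse. The 0ND mice of the second cohort had 57.0% to 65.2% and the 0P mice 12.8% to 44.8%. The sites were chosen as high in 0ND and low in 0P of these same libraries, so that gap is part of the choice. Over the 6 mice the SD was 3.36 in 0ND and 11.2 in 0P, in the values that chose the sites. On 8 mg epithelium had 41.0% to 62.3% and polyps 28.2% to 41.7% at the same sites. Of the 56 sites lower on 8 mg in the first cohort, 42 were tested between 0P and 0ND and 15 were called lower in 0P (35.7%). Of such sites among all with enough reads 29.7% were, and among the other middle-level sites 31.1%, where 4.94% of all sites tested were lower in 0P. The comparisons with 0P share the 0ND samples of the second cohort with the diet comparison there.

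Polyps of the 2 diets differed at few variable sites. Between 8P and 0P, 23 of 289 were called (7.96%), 7 lower and 16 higher on 8 mg, against 2.39% of all sites (0.874% lower and 1.52% higher) and 6.96% of the other middle-level sites. In the raw percentages the split turned, with 13 lower and 6 higher of 19. The count was 14 without mouse 1848 or 1856, and 15 without mouse 1858. Groups did not overlap at 2 of the 23 (0.692% of those tested, against 0.271% of all sites and 0.665% of the other middle-level sites). None passed limma's adjustment (0.00603% of all sites), and 26 had an unadjusted p under 0.05 (9.00%, against 4.55% and 7.49%).

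Those 2 sites were chr10:119870174 and chr10:59681199. At chr10:59681199 the 0P mice had 0% to 5.58% (median 0%) and the 8P mice 5.84% to 20.1% (median 11.2%), a difference of 10.1 points (SE 2.66, limma adjusted p = 0.667). Its 2ND spread came from mouse LC1812 at 45.3%, the others being at 0% to 14.2%. At chr10:119870174 the difference was 27.1 points (SE 5.92, limma adjusted p = 0.530), and the 2 lesions of mouse 1856 had 0% and 50.4% with 28 and 30 reads. The 0P mice had 0% to 14.4% there, so the lesion at 0% lay inside their range. The groups were apart at this site only with the 2 lesions averaged.

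Whether the polyp change itself depended on diet was tested with limma's interaction term. Of 214 variable sites, 0 passed the adjusted threshold, as did 0% of all sites, and 23 (10.7%) had an unadjusted p under 0.05, against 3.82% of all sites and 7.11% of the other middle-level sites. The smallest adjusted p was 0.775. This fit had no term for the mouse, although polyps and epithelium came from the same animals.

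Averaged over the variable sites of each library, methylation was 51.1% ± 2.15 (SD, n = 5) in 0ND, 46.1% ± 3.24 (n = 7) in 2ND and 43.6% ± 4.54 (n = 6) in 8ND of the first cohort. In the second it was 49.3% ± 3.68 in 0ND, 39.9% ± 4.67 in 0P and 42.9% ± 4.28 in 8ND (n = 6 each), and 40.7% ± 3.36 in 8P (n = 7 libraries). The other middle-level sites had 57.1%, 52.6% and 51.7%, and 54.8%, 45.7%, 49.7% and 46.4%, in the same order of groups. Levels of both kinds of site thus stood in the same order over the diets and tissues.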

How the data were processed

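DREAM was run on 43 libraries of 22 mice. The authors deposited, per site, counts of methylated and total reads and the raw and adjusted methylation percent. The submitters' processing notes name Bowtie2, SAMtools and mm9, without versions. The paper's methods name a human genome for mapping, whereas the positions are those of mm9. The reference used here is GRCm38, in which 0 of 11386 listed chromosome 1 sites carried the motif at the listed position, so neither genes nor sequences are given.

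The adjusted percent was used where a site had at least 50 reads for spread and 20 reads, in at least 4 mice per group, for comparisons. Sites were compared by a two-sided equal-variance two-group test (unadjusted p under 0.05 and a difference over 5 points, after the study), and with limma 3.58.1 in R 4.3.3 with Benjamini-Hochberg adjustment over all sites tested. Groups and mouse numbers came from the labels. The labels do not say whether libraries of 1 mouse in the 2 cohorts came from 1 dissection or from the same kind of sample. Polyps and epithelium with the same mouse number come from the same animal, so blocks were also fitted. Python 3.11.15, numpy 2.4.6 and scipy 1.17.1 were used, and the statistics were tested on simulated data.

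The sites and comparisons were chosen with earlier results of these data known. Named were the 3 longest runs, the 5 largest SDs evaluated in both other first-cohort groups and the 5 smallest p-values between mice. The 2 largest differences among called sites without overlap in each comparison were added, where diet in the second cohort had only 1 such site. For SDs, p-values and differences 1 site was taken per run. The 2 sites on either side of the threshold were also named. Alternatives were raw percentages, other read minimums and SD thresholds, counting variance subtracted, centred libraries, limma, a quasi-binomial model, mouse blocks, separate lesions and leaving out each mouse. The test between mice in the second cohort alone, the unblocked fit on the blocked sites and the comparison with other middle-level sites were added after the data were seen.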

Additional observations from a re-analysis of the deposited data

Results flagged for a closer look

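In 220 sets of 4 to 10 values, the mice or libraries of 1 group at a named site or the group's means over the variable sites, the gap between an extreme value and its neighbour was set against the whole range. It passed Dixon's 95% critical value in 19 sets, where chance flags about 1 in 20, or 11.0. The ratio of gap to range is given for each, and several sets are of neighbouring sites.

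Mouse 1820 had 36.0% (ratio 0.769) and 25.1% (0.774) at chr7:140235974 in 0ND of both cohorts, and was high in 0ND of the second cohort at chr7:114353787 (90.9%, ratio 0.740). Mouse 1830 was low at chr7:114353664 (35.8%, 0.842) and high at chr4:139078086 (100.0%, 0.748) in 8ND of the second cohort. The same mouse was high in 8P at chr11:96182075 (91.7%, 0.716), chr11:98973487 (55.1%, 0.680), chr11:98973678 (67.5%, 0.752) and chr13:98652693 (44.0%, 0.631). Mouse 1858 was high in 8ND of the second cohort at chr13:98652693 (47.6%, 0.786).

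Mouse 1808 was high in 0P at chr4:139078272 (44.2%, 0.655) and chr6:50328253 (47.1%, 0.680). In 0ND of the first cohort, mouse LC1810 was low at chr2:56965057 (13.2%, 0.8293), and mouse LC1817 at chr4:139078272 (58.6%, 0.718) and chr1:39997890 (44.0%, 0.753). In 8ND of that cohort mouse LC1844 was low at chr2:102580112 (28.9%, 0.735). In 2ND, mouse LC1814 was high at chr12:107123316 (89.4%, 0.587), mouse LC1812 was low at chr7:135569212 (9.70%, 0.578) and high at chr10:59681199 (45.3%, 0.688). The 2ND values chose the sites, so a far mouse there is part of the rule.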

How the results depend on the processing

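The number of variable sites depended on the settings: 1092 in raw percentages (208 of them among the 325), 894 at a minimum of 20 reads, 183 at 100, 726 at an SD of 10 and 90 at 15, and 242 to 361 without 1 mouse. The share with an SD of 12 or more in raw percentages was 55.1% in 0ND and 10.4% in 8ND of the first cohort. At 20 reads it was 37.5% in 8ND of the first cohort, and at 100 reads 47.8% of 23 sites in 8ND of the second. Without 1 mouse it was 26.2% to 43.5% in 0ND and 22.3% to 27.0% in 8ND of the first cohort, and 38.0% to 49.0%, 66.3% to 77.3%, 66.7% to 73.3% and 25.5% to 34.5% in 0ND, 0P, 8ND and 8P of the second. The count that differed between mice stayed at 0 under the alternatives run. Its unadjusted count of 8 was 7 to 14 without 1 mouse, 14 being without mouse 1856, and 2 of 20 sites at 50 reads.

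With 20 reads in every library, calls fell to 37 and 16 for diet in the first and second cohorts and 11 for 8P against 0P. At 50 reads they were 19 for 8P against 8ND and 15 for 8P against 0P. Adjusted by limma they were 0, 0, 5, 0 and 0. Raw percentages gave 13 lower and 6 higher of 19 for 8P against 0P. Without 1 mouse, calls were 40 to 68 and 18 to 29 for diet, 43 to 50 and 18 to 28 for polyps on 0 and 8 mg, and 14 to 33 for 8P against 0P. With the mouse as replicate block in limma, 34 of 122 sites were called for 0P against 0ND and 24 of 129 for 8P against 8ND, and 35 and 25 of the same sites without the block. The share with a neighbour was 44.4% for sites chosen on raw percentages. Of 82 settings other than leaving out a mouse, 61 stayed within 1.5 times the reported value. The cause of these shifts was not tested. Fewer sites or libraries enter at higher read minimums by construction.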
